A study of Mus musculus with 10 samples.

Results

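Glp1r, the receptor for the incretin peptide GLP-1, was described in the hippocampus of Dp1Yey mice together with 7 genes listed as markers of the thalamus or the habenula, which lie next to the hippocampus and can be carried over at dissection. The 7 genes were Tcf7l2, Prkcd, Lef1, Rgs16, Ramp3, Slc17a6 and Calb2. The members were chosen by name with earlier results of these arrays known, so their values are given as a description. Each of the 8 genes had 1 probe set annotated to a single symbol, and these were 8 of 19938 genes measured. All 8 genes lie outside the duplicated interval and are present in 2 copies in both groups.

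The samples were whole hippocampi, left and right, of 5 Dp1Yey mice and 5 control littermates, all male and 16 weeks of age, with 1 Affymetrix Mouse Gene 1.0 ST array for each mouse. The Dp1Yey duplication spans Lipi to Zbtb21 on mouse chromosome 16 (Mmu16), so that its genes are present in 3 copies against 2 in control littermates. The duplication is present in every cell of the mouse, so no group is a model of a change limited to the hippocampus. The labels give the background of both groups as C57BL/6N while the study's methods name C57BL/6J, which was not settled here. The deposited values are log2 values from robust multi-array average (RMA), and their median per array lay between 6.31 and 6.44. Pearson's r between any pair of arrays over all probe sets lay between 0.993 and 0.998. Background was set at a log2 value of 5.45, below which lay the mean levels of 90% of 1015 olfactory receptor genes, and a gene with a higher mean was taken as above it. All 8 members were. Control replicate 1 and Dp1Yey replicate 1 stood apart in the results below, and correlations that rest on them are given with and without them. The pair was picked for its Glp1r values, so leaving it out also narrows the range of Glp1r, and the values without it are descriptions. Correlations without it are taken from the values as deposited, with the group means left in. On the arrays left, Glp1r was higher in every control array than in any Dp1Yey array. Those correlations therefore also carry the difference between the groups. The share of all genes whose groups part on the arrays left was not counted. The arrays measured bulk tissue, so that fewer cells of a type and less RNA per cell cannot be told apart.

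GLP-1 is released by the gut and by hindbrain neurons, and its receptor is a class B G protein-coupled receptor that raises cAMP. In the rodent brain the receptor is well known from the hypothalamus, the hindbrain and the lateral septum. The thalamus lies beneath the hippocampus and its relay neurons are glutamatergic. They use the vesicular transporter encoded by Slc17a6, whereas hippocampal principal cells rely largely on Slc17a7. Thalamic and habenular neurons also keep the transcription factor Tcf7l2 after development. Tcf7l2 and Lef1 are both factors that bind beta-catenin and switch on Wnt target genes. Prkcd encodes a protein kinase C isoform, Rgs16 a protein that speeds the shut-off of G protein signals, and Ramp3 a partner protein that changes the ligand preference of the calcitonin family of class B receptors. Calb2 encodes calretinin, a calcium-buffering protein of many interneurons and of neurons in the midline thalamus.

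The promoter windows of the receptor and of a marker gene are shown because the members include a pair of TCF/LEF factors, whose core recognition letters can be looked for in them. They are RefSeq sequences of GRCm38.p6, from 250 bases before to 50 bases after the start, read 5′ to 3′ on the strand of the gene. Capitals mark the letters CTTTGA or, read on the other strand, TCAAAG. The Glp1r window is chr17:30901617-30901916 on the plus strand and the Prkcd window is chr14:30626159-30626458 on the minus strand.
Glp1r: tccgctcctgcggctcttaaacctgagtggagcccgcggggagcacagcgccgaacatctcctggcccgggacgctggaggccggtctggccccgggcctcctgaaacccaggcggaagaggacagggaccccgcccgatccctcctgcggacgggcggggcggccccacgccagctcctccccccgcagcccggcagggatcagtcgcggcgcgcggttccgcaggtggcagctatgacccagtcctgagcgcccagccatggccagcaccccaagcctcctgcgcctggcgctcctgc
Prkcd: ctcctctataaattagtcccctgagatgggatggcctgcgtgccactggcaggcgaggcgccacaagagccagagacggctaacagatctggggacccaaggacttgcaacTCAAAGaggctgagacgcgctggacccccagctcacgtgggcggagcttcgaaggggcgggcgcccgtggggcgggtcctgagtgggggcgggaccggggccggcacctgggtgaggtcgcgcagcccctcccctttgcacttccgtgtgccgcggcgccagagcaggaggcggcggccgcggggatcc
Neither form of the letters is in the Glp1r window. The Prkcd window shown holds 1, and another Prkcd window, not shown, holds 0. Of 13 windows found for 7 members, 2 held the letters, the other being a Lef1 window. They stand in 16.0% of all 32851 windows of this length, so a match is a description of the sequence alone.

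Glp1r (Entrez 14652, probe set 10443690, chr17:30901867-30936510) was among the genes with the widest spread between mice. Its log2 values in Dp1Yey replicates 1 to 5 were 8.47, 6.83, 6.70, 7.00 and 6.95. In control replicates 1 to 5 they were 9.80, 7.47, 7.58, 7.20 and 7.08. In each group replicate 1 was the highest array, and the other 4 arrays of each group lay close together. The highest array stood 8.62-fold above the lowest. The within-group SD was 0.95, the fourth largest (rank 4) of 19938 genes, whose median was 0.075 and whose 99th percentile was 0.24. Against the median of the other 8 arrays, Glp1r was 6.79-fold higher in control replicate 1 and 2.69-fold higher in Dp1Yey replicate 1.

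The group means of Glp1r and their SD were 7.19 ± 0.73 for Dp1Yey and 7.83 ± 1.12 for control littermates (n = 5 each), and the groups overlapped. The log2 difference was -0.64, with a 95% confidence interval of -1.69 to 0.42, and it did not pass the test (limma, adjusted p = 0.465 over all genes). Of all genes, 0.797% were called at an adjusted p under 0.05 (0.687% higher and 0.110% lower in Dp1Yey), and 0 of the 8 members were. No member passed at an unadjusted p under 0.05 in this fit either, where 19.5% of genes did. In other settings some did, among them Glp1r with the replicate number as a block (limma, unadjusted p = 0.0036, adjusted p = 0.151). Lef1 did with a new quantile normalisation (limma, adjusted p = 0.175). It also did with median centring, with array weights and with the mean of 13 thalamic genes as a covariate. Leaving out Dp1Yey replicate 2, Dp1Yey replicate 4 or control replicate 1 had the same outcome for Lef1. Without control replicate 1, Prkcd (limma, adjusted p = 0.115) and Slc17a6 (limma, adjusted p = 0.138) did. Slc17a6 also did with the quantile normalisation, the array weights and that covariate. No member passed the adjusted test in any of these settings. The study's rank statistic, rewritten here, called Glp1r lower (f = 0.0111), the only member it called. It called 3.46% of all genes, 0.993% lower and 2.46% higher, and Prkcd (f = 0.9746) lay just under its upper limit. That statistic averages ranks over pairs of arrays and is little moved by how far a single array stands out. Its limits are set from its own mean and spread over all genes, so it calls a share of genes in any data. In simulated data it called 1105 genes where 200 had been changed, a count largely set by those limits. The study itself reports Glp1r as lower in Dp1Yey and in its models Ts65Dn, Dp5/Dp1 and Dp5Yah. In its model Dp1Rhr it reports the gene as higher, and in Tg(Dyrk1a) as unaffected. Those other models were not analysed here.

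The size of the Glp1r difference depended on replicate 1 of each group. Without control replicate 1 it was -0.14 (adjusted p = 0.818), and without Dp1Yey replicate 1 it was -0.96 (adjusted p = 0.355). Without both, a setting added after seeing the data, the 4 Dp1Yey arrays left lay between 6.70 and 7.00 and the 4 control arrays between 7.08 and 7.58, a difference of -0.46. These arrays were left out because they were highest in Glp1r itself, so the narrower spread follows from that choice and no test is given. How many other genes part in this way on the arrays left was not counted. With the mean of 13 thalamic genes as a covariate the Glp1r difference was -0.29 (adjusted p = 0.382). Over the other settings of the limma fit the adjusted p ranged from 0.151 to 0.818.

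**Figure D1:**
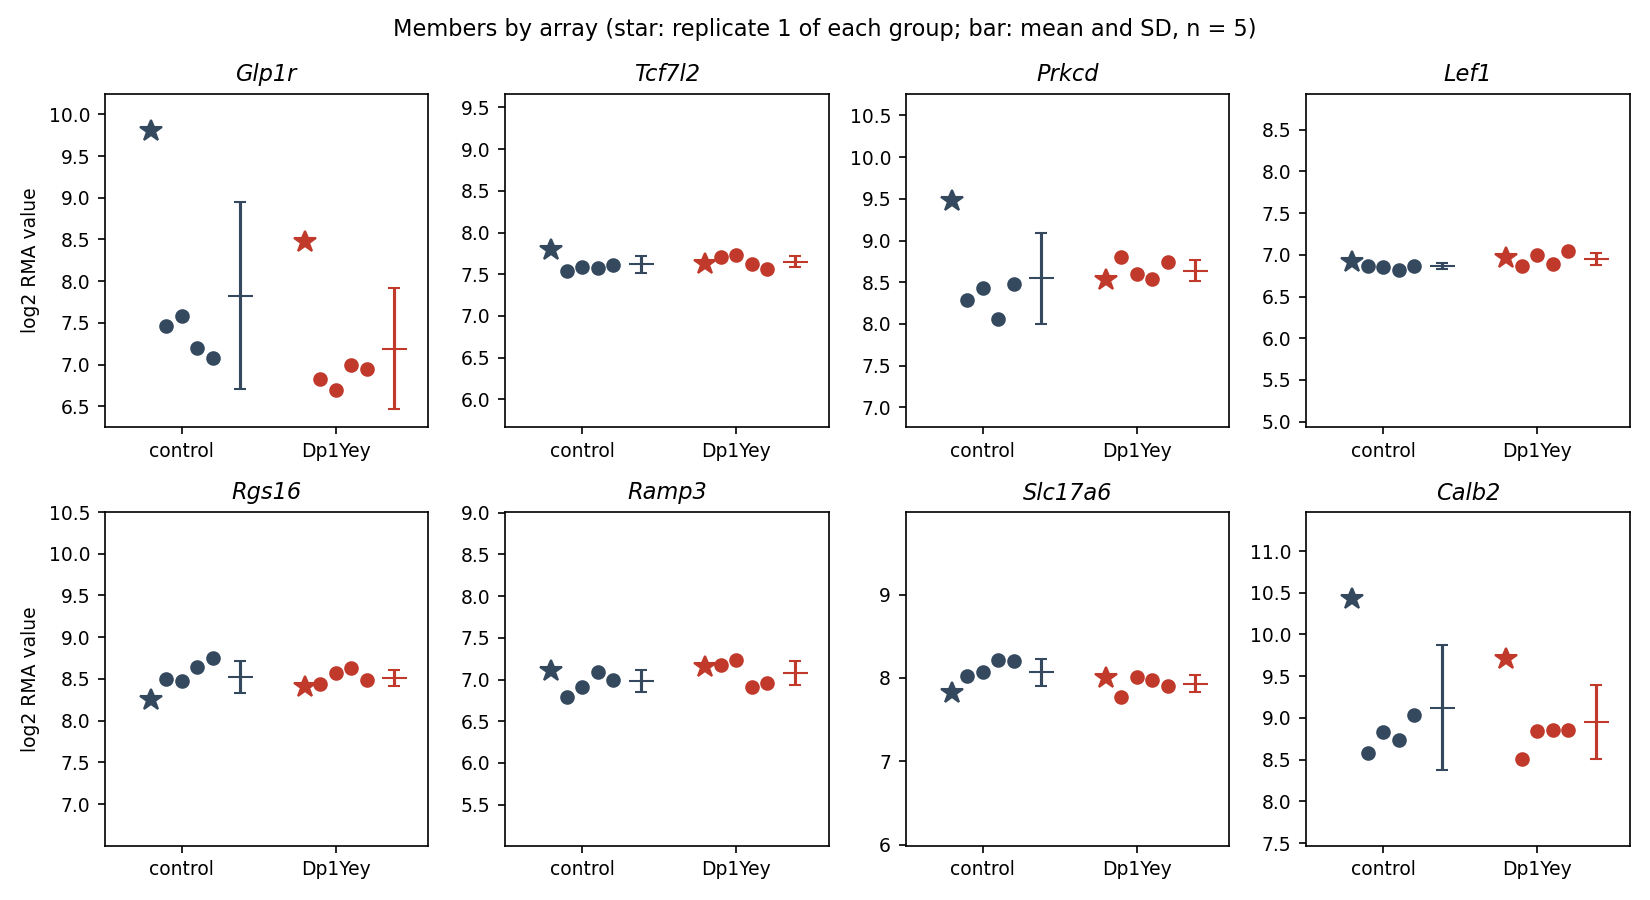
Deposited log2 RMA value (vertical axis) of Glp1r and the 7 marker genes on each array, control in blue and Dp1Yey in red, replicates in order from left to right, with replicate 1 of each group as a star and the mean and SD of 5 arrays as a bar. Every panel spans the same height of 4 log2 units. Both stars stand above the other arrays for Glp1r and Calb2, the blue star alone for Prkcd and, by little, Tcf7l2, and neither for Lef1, Rgs16, Ramp3 and Slc17a6.

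Tcf7l2 (Entrez 21416, probe set 10464084, chr19:55741797-55933659), one of the TCF/LEF factors, hardly varied. Its log2 values were 7.62, 7.70, 7.73, 7.63 and 7.56 in Dp1Yey and 7.80, 7.54, 7.58, 7.57 and 7.61 in control replicates 1 to 5. Control replicate 1 was the highest array, but only 1.15-fold above the median of the 8 arrays outside the pair, and Dp1Yey replicate 1 stood 1.02-fold above it. The within-group SD was 0.086, close to the median of all genes. The group difference was 0.029 (95% confidence interval -0.082 to 0.14, limma, adjusted p = 0.767).

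Lef1 (Entrez 16842, probe set 10496091, chr3:131110297-131224357), the other TCF/LEF factor, was the least variable member. The log2 values of Lef1 were 6.96, 6.86, 7.00, 6.89 and 7.04 in Dp1Yey and 6.92, 6.87, 6.85, 6.82 and 6.86 in control mice. Dp1Yey replicates 1, 3 and 5 lay above every control array, and Dp1Yey replicates 2 and 4 lay within the control range. The within-group SD of 0.060 was below the median of all genes, and the highest array was 1.17-fold above the lowest. The difference of 0.086 had the interval closest to excluding 0 among the members that were higher in Dp1Yey (95% confidence interval -0.0016 to 0.17, limma, adjusted p = 0.264).

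Prkcd (Entrez 18753, probe set 10418410, chr14:30595353-30626414) varied widely, though in a different way from Glp1r. In Prkcd the log2 values were 8.53, 8.81, 8.60, 8.54 and 8.74 in Dp1Yey and 9.47, 8.28, 8.44, 8.06 and 8.48 in control mice. Control replicate 1 was 1.94-fold above the median of the 8 arrays outside the pair, whereas Dp1Yey replicate 1 was the lowest Dp1Yey array. The means and SD were 8.64 ± 0.13 for Dp1Yey and 8.55 ± 0.54 for control littermates (n = 5 each), and the within-group SD of 0.39 ranked 36 among all genes. The difference was 0.095 (95% confidence interval -0.35 to 0.54, limma, adjusted p = 0.814). Without control replicate 1 it was 0.33 (adjusted p = 0.115), in the direction opposite to Glp1r, and without control replicate 4 it turned to -0.027.

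Calb2 (Entrez 12308, probe set 10581654, chr8:110142526-110168212) was the member that shared both high arrays with Glp1r. Calb2 had log2 values of 9.70, 8.51, 8.85, 8.86 and 8.85 in Dp1Yey and 10.43, 8.58, 8.83, 8.73 and 9.04 in control mice. Control replicate 1 and Dp1Yey replicate 1 were the highest arrays, 3.02-fold and 1.82-fold above the median of the other 8. The means and SD were 8.95 ± 0.44 for Dp1Yey and 9.12 ± 0.75 for control littermates (n = 5 each), and the within-group SD of 0.62 ranked 10. The difference was -0.17 (95% confidence interval -0.86 to 0.52, limma, adjusted p = 0.786), and it was 0.16 without control replicate 1.

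Rgs16 (Entrez 19734, probe set 10350733, chr1:153740353-153745468) ran the other way. Rgs16 had log2 values of 8.40, 8.44, 8.57, 8.64 and 8.49 in Dp1Yey and 8.25, 8.50, 8.47, 8.64 and 8.76 in control mice. Replicate 1 was the lowest array of each group, at 0.818 and 0.911 times the median of the other 8 arrays in control and Dp1Yey. The group means differed by -0.016 (95% confidence interval -0.19 to 0.16, limma, adjusted p = 0.929), a value whose sign turned with the array left out.

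Slc17a6 (Entrez 140919, probe set 10553501, chr7:51621830-51671126), which loads glutamate into the vesicles of thalamic and habenular neurons, was low on control replicate 1 as well. Its log2 values were 7.996, 7.77, 8.01, 7.97 and 7.91 in Dp1Yey and 7.82, 8.02, 8.07, 8.21 and 8.21 in control mice. Control replicate 1 was the lowest control array, at 0.874 times the median of the 8 arrays outside the pair. The difference was -0.14 (95% confidence interval -0.30 to 0.023, limma, adjusted p = 0.320).

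Ramp3 (Entrez 56089, probe set 10374197, chr11:6658506-6677478) was not set apart on either array. Its log2 values were 7.15, 7.17, 7.23, 6.91 and 6.95 in Dp1Yey and 7.10, 6.79, 6.91, 7.09 and 7.00 in control mice. Control replicate 1 and Dp1Yey replicate 1 stood 1.09-fold and 1.13-fold above the median of the other 8 arrays. The difference was 0.10 (95% confidence interval -0.059 to 0.27, limma, adjusted p = 0.440). Of the 8 members, 4 were higher in Dp1Yey and 4 lower, with a median log2 difference of 0.0066 against -0.015 over all genes, and the groups overlapped for each of the 8, whereas they did not for 4.86% of all genes.

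**Figure D2:**
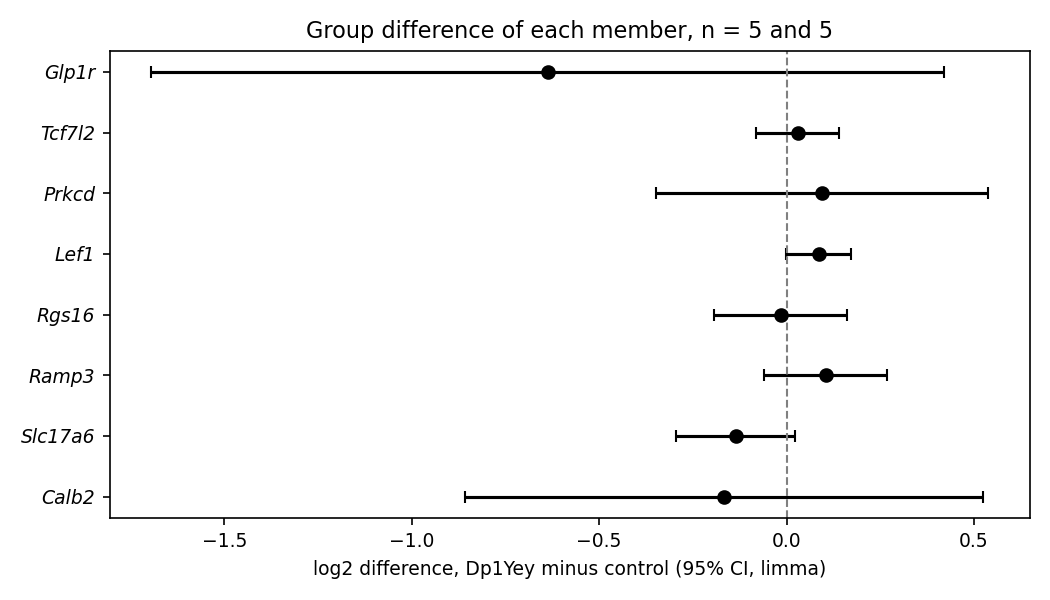
Log2 difference, Dp1Yey minus control, of each member (horizontal axis) with its 95% confidence interval from limma, 5 arrays a group; the dashed line marks 0. Every interval covers 0, and those of Glp1r (-1.69 to 0.42) and Calb2 (-0.86 to 0.52) are the widest.

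How far Glp1r follows the markers of neighbouring tissue was asked over the 10 arrays. These correlations are descriptions with no p, since the genes were named with results of these arrays known, and the arrays share a dissection and a normalisation. Glp1r followed Calb2 (r = 0.92, Spearman's rho = 0.43) and, less, Prkcd (r = 0.61, rho = -0.25) and Tcf7l2 (r = 0.44, rho = -0.091), with a rank correlation well below Pearson's r for each of these 3 genes. For Lef1 (r = 0.014) and Ramp3 (r = 0.11) the value was near 0, and for Slc17a6 (r = -0.28) and Rgs16 (r = -0.74) it was negative. With the group means removed, r was 0.94 for Calb2, 0.71 for Prkcd, 0.55 for Tcf7l2, 0.32 for Lef1, 0.29 for Ramp3, -0.56 for Slc17a6 and -0.82 for Rgs16.

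Removing the group means allowed each marker to be placed among 15161 other genes above background. Calb2 had the r of rank 10 with Glp1r, Prkcd 457, Tcf7l2 1315, Lef1 3590 and Ramp3 3990. Slc17a6 stood at rank 14400 and Rgs16 at 15127, near the bottom. Of the 7 markers 3 reached an r of 0.5 and 2 lay at or below -0.5, against 11.1% and 7.18% of all genes. The 7 markers were thus spread from one end of the ranking to the other.

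The mean of the 7 markers followed Glp1r with r = 0.76 (rho = 0.13), and without the 2 arrays farthest from its median with r = 0.41. Without Calb2 the mean of the remaining markers gave r = 0.34 (rho = -0.24). Without control replicate 1 and Dp1Yey replicate 1, r of Glp1r with the mean of the 7 turned to -0.69 over 8 arrays. Among those 8 arrays r was -0.77 for Tcf7l2, -0.61 for Prkcd, -0.55 for Lef1, -0.74 for Ramp3, -0.13 for Rgs16, 0.42 for Slc17a6 and -0.095 for Calb2. Over these 8 arrays, then, with the group means left in, no marker that rose with Glp1r over all 10 still did. Glp1r was higher there in every control array (7.08 to 7.58) than in any Dp1Yey array (6.70 to 7.00). The sign of r thus mixes the group difference with variation within the groups. Whether such a parting of the groups is unusual among all genes on these 8 arrays was not examined. Following within the groups was not examined over these 8 arrays.

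**Figure D3:**
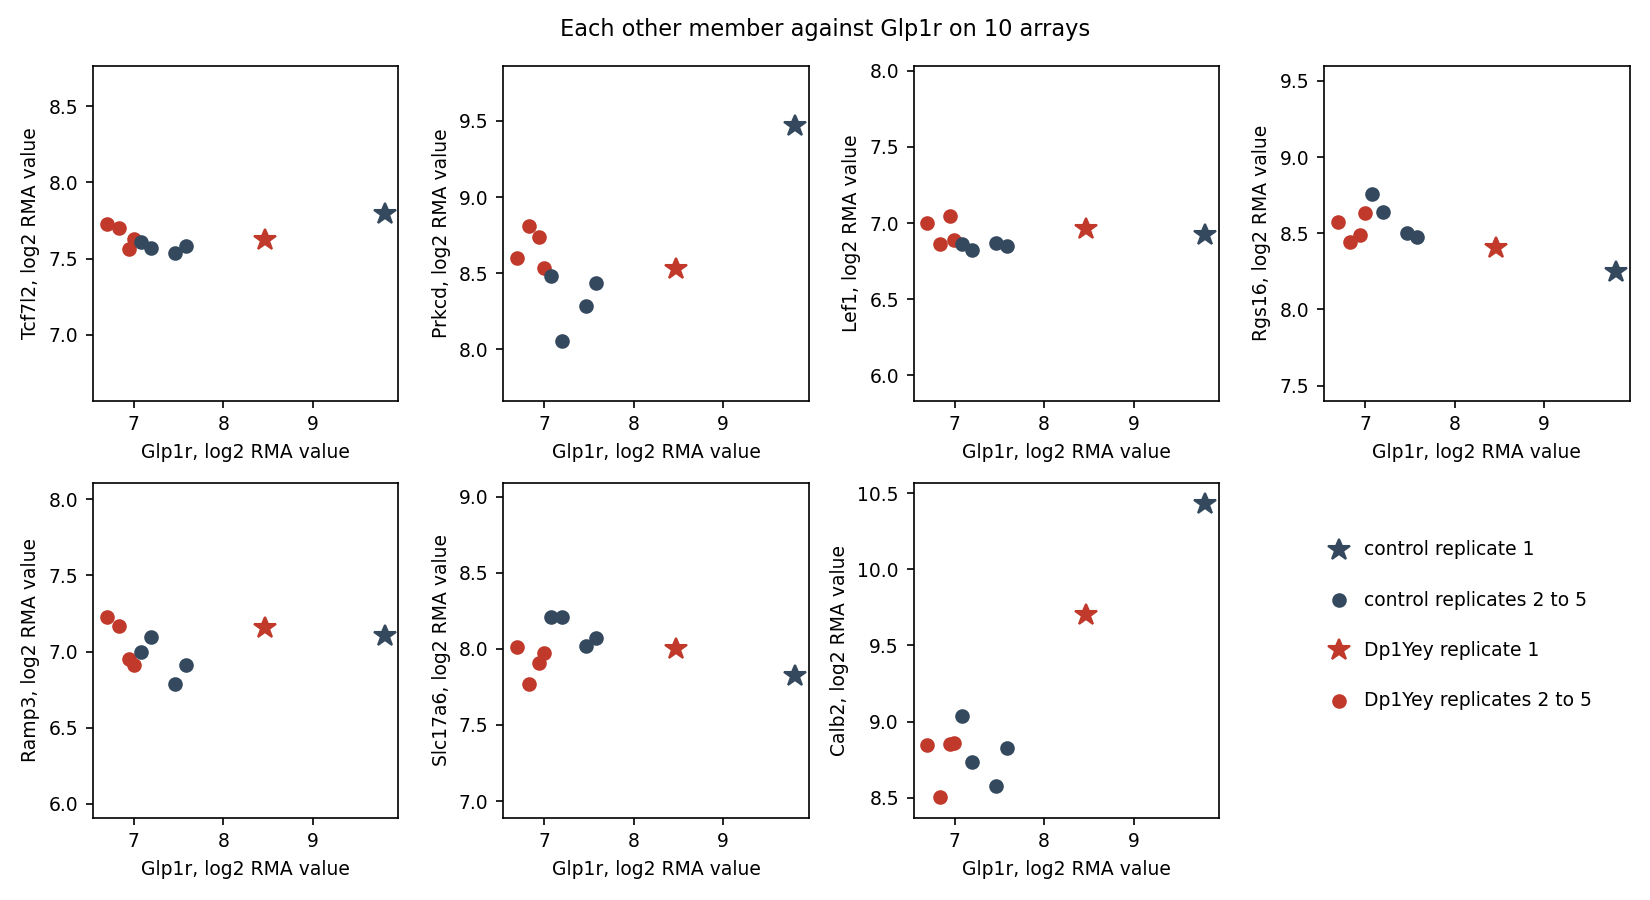
Log2 RMA value of each marker gene (vertical axes) against that of Glp1r (horizontal axes) on the 10 arrays, control in blue and Dp1Yey in red. The arrays at Glp1r values of 9.80 and 8.47 are control replicate 1 and Dp1Yey replicate 1, and only for Calb2 do both stand above the rest.

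The members were also read against each other. Of the 28 pairs of members 16 had a positive r, 7 were above 0.5 and 5 below -0.5. Of the 21 pairs among the 7 markers 11 had a positive r. Tcf7l2 and Prkcd rose together (r = 0.80), as did Rgs16 and Slc17a6 (r = 0.74), while Prkcd and Slc17a6 ran opposite (r = -0.76). The sign of r was kept in 17 of the 28 pairs without both high arrays.

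Other genes of the thalamus gave a mixed picture. The list held 13 genes, all measured and 12 above background, of which 6 were higher and 7 lower in Dp1Yey and 0 were called. Its mean followed Glp1r with r = 0.94 (rho = 0.60), but with r = 0.23 without both high arrays. The mean was 7.81 in control replicate 1 and 7.61 in Dp1Yey replicate 1, and between 7.49 and 7.55 in the other 8. With the group means removed, 4 of the 13 genes had an r of 0.5 or more, namely Zic1, Plcb4, Slitrk6 and Lhx9, which apart from Plcb4 are named after their values were seen. Slitrk6, with a mean of 4.98, was below background. Over the 8 arrays without the pair, r was 0.64 for Plcb4, 0.22 for Lhx9, 0.055 for Zic1 and -0.44 for Slitrk6, from the values as deposited. Zic1, a transcription factor of the septum as well as of parts of the thalamus, was 4.54-fold and 1.65-fold above the median of the other 8 arrays in control replicate 1 and Dp1Yey replicate 1. Without Zic1 the list gave r = 0.88 (rho = 0.36). Its mean was then highest in control replicate 1 and next in control replicate 2, with no Dp1Yey array above 7.54. Of its most highly expressed genes, the RNA editing enzyme Adarb1 differed by -0.065 between the groups, the axon guidance gene Ntng1 by -0.11, the nuclear receptor Rora by 0.033 and the phospholipase Plcb4 by -0.16 (log2). The thalamic homeobox gene Gbx2 averaged 6.22, Tnnt1 5.93 and Foxp2 5.72 over the 10 arrays, little above the background level; these are named after their values were seen.

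The mean of the habenular genes lay between 5.93 and 6.03 on all 10 arrays, and its r with Glp1r was -0.0023. Its genes went both ways: with the group means removed, 1 of 9 had an r of 0.5 or more (Pou4f1, 0.67) and 1 an r of -0.5 or less (Gpr151, -0.69). Without the pair of high arrays r was 0.38 for Pou4f1 and -0.025 for Gpr151, from the values as deposited. Of 9 genes 6 were above background, and the defining markers Gpr151 (mean 5.33) and Pou4f1 (5.19), named after their values were seen, were below it, as was Chrnb3. Tac2, which encodes the precursor of neurokinin B and is also made by hippocampal interneurons, was called higher in Dp1Yey by 0.36 (95% confidence interval 0.23 to 0.50, limma, adjusted p = 0.0197). It was called in 7 of 10 fits that left out an array and not without both high arrays (adjusted p = 0.105). The other habenular genes of highest level were Htr5b (difference -0.10), Chrnb4 (-0.078) and Slc5a7 (-0.057), and none was called.

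Genes of other neighbouring regions shared the high arrays to different degrees. The lateral septum list, of which 4 of 6 genes were measured, had a mean of 9.37 in control replicate 1 and 9.03 in Dp1Yey replicate 1, and between 8.79 and 8.88 in the other 8. Its r with Glp1r was 0.95 (rho = 0.58), and 0.31 without both high arrays. With the group means removed, r was 0.96 for the transcription factor Zic2, 0.85 for Zic4 and 0.65 for the channel gene Trpc4, while the neuropeptide gene Sst did not reach 0.5. Without both high arrays r was 0.29 for Zic2, 0.15 for Zic4 and 0.35 for Trpc4, from the values as deposited. The list mean rests mostly on Zic2, which stood 2.52-fold and 1.44-fold above the other 8 arrays. In the striatum list, the mean gave r = 0.72 (rho = 0.15), and 0.15 without both high arrays. With the group means removed, 1 of its 6 genes reached an r of 0.5, the dopamine receptor gene Drd2, named after its values were seen. From the values as deposited its r was 0.88, and -0.032 without both. Penk, Pde10a, Ppp1r1b and Drd1 were the striatal genes of highest level, with differences of -0.067, 0.048, -0.19 and -0.10. The neocortex list, with Tbr1, Lamp5, Fezf2 and Rorb, gave r = -0.46 (rho = -0.0061), which turned to 0.42 without both high arrays, and 0 of 5 genes reached 0.5.

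Choroid plexus, the epithelium that makes cerebrospinal fluid, is another tissue next to the hippocampus. Its list was high on control replicates 1, 4 and 5, with means of 8.78, 8.45 and 8.51 against 7.05 to 7.77 on the other 7 arrays, whereas Glp1r was high on control replicate 1 alone of these. Ttr, the transthyretin gene and its most abundant marker, had log2 values of 10.46, 9.37, 9.20, 11.95 and 11.32 in Dp1Yey and 13.16, 10.50, 10.26, 13.09 and 13.11 in control mice. It was the most variable gene of all, with a within-group SD of 1.36. In control replicates 4 and 5, at 13.09 and 13.11 for Ttr, Glp1r stood at 7.20 and 7.08. The r of Glp1r with the list was 0.46 (rho = 0.44), and 0.17 without both high arrays. All 5 measured genes of the list were lower in Dp1Yey (median -0.58 against -0.015 over all genes), and 0 were called. At an unadjusted p under 0.05 (limma) the 5 passed, against 19.5% of all genes. Ttr differed by -1.57, Kl by -0.58, Folr1 by -0.62 and Otx2 by -0.57. Principal cell genes of the hippocampus, among them Zbtb20, Wfs1, Neurod6 and Grik4, did not follow Glp1r (r = -0.074), and 0 of 11 were called.

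**Figure D4:**
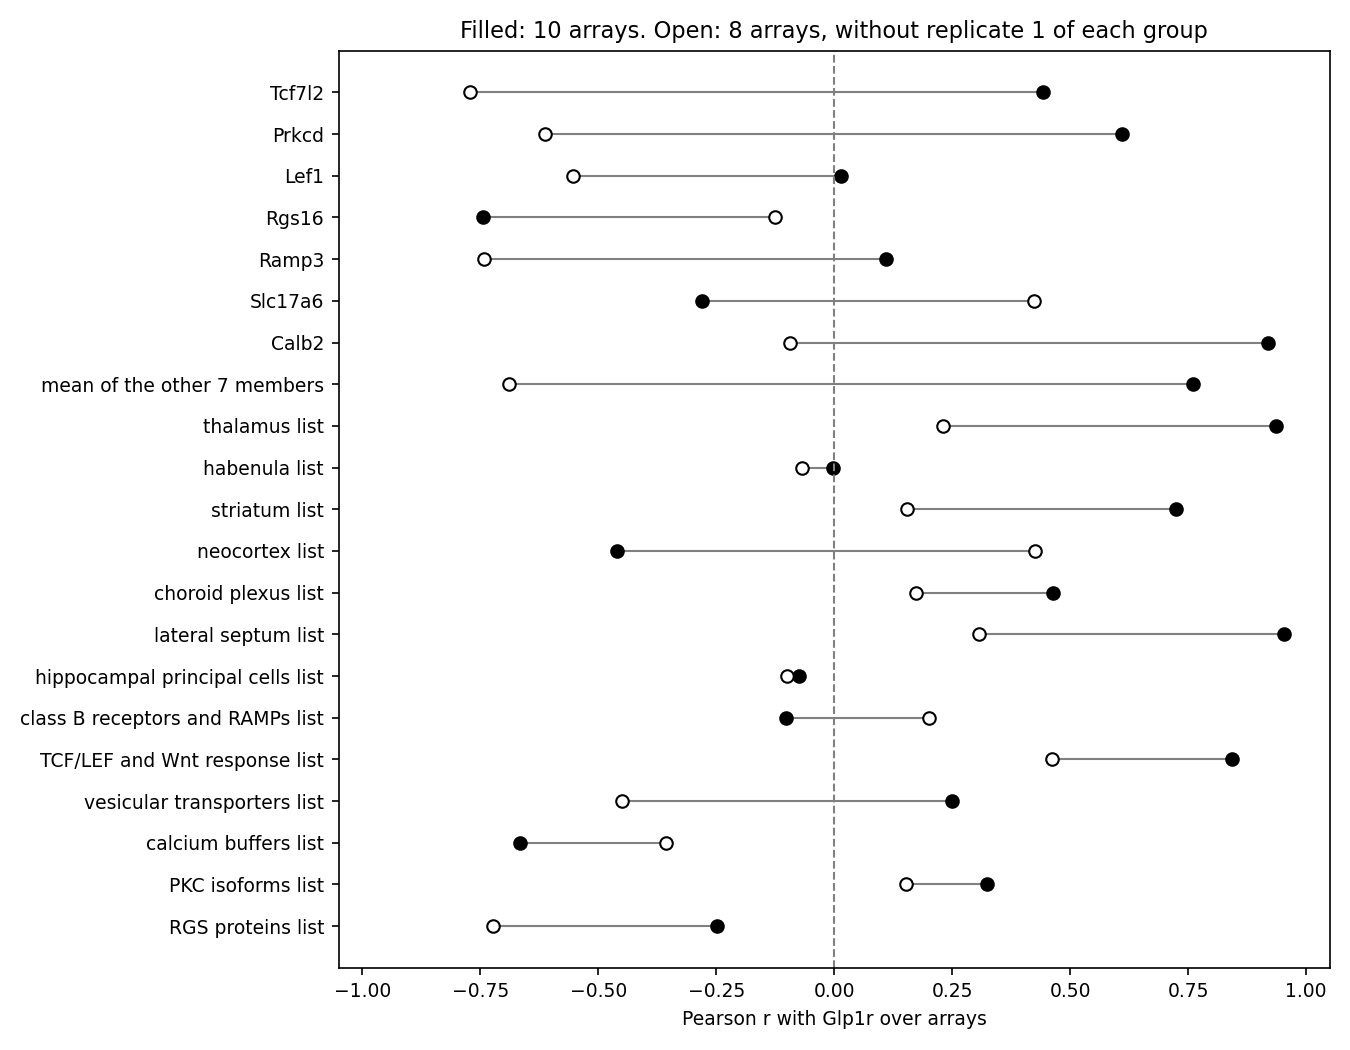
Pearson's r with Glp1r over the 10 arrays (horizontal axis) for each marker gene, for the mean of the 7 and for the means of 13 gene lists (rows), filled points for 10 arrays and open points for 8, without the 2 arrays highest in Glp1r. The thalamus (0.94), lateral septum (0.95) and Calb2 (0.92) values are the highest with all arrays and fall to 0.23, 0.31 and -0.095 without that pair.

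Genes that work with the members were read in the same way. Among 18 genes for class B receptors, their ligands and RAMPs, 13 were above background and 1 was called, the calcitonin receptor-like gene Calcrl, which pairs with RAMPs to form the CGRP and adrenomedullin receptors. Calcrl was higher in Dp1Yey by 0.28 (95% confidence interval 0.16 to 0.41, limma, adjusted p = 0.0459), and it was called in 2 of 10 fits that left out an array. The PACAP receptor gene Adcyap1r1 differed by -0.095, Ramp1 by -0.027, Ramp2 by 0.22 and Crhr1 by -0.11, and none of them was called. Gcg, which encodes the precursor of GLP-1, was below background, as were Glp2r, Vipr2, Pth2r and Calcr; these are named after their values were seen. The list mean did not follow Glp1r (r = -0.10).

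The list of TCF/LEF factors and Wnt response genes followed Glp1r (r = 0.84, rho = 0.56, and 0.46 without both high arrays), although Tcf7l2 and Lef1 themselves, which are no part of it, hardly varied. With the group means removed, 5 of 9 genes had an r of 0.5 or more, namely Axin2 (0.83), Apcdd1 (0.70), Ccnd1 (0.62), Ctnnb1 (0.60) and Tcf7l1 (0.51), of which Axin2 and Tcf7l1 are named after their values were seen. Without both high arrays they parted. From the values as deposited, r was then 0.94 for Axin2, 0.70 for Ctnnb1, 0.59 for Apcdd1, 0.11 for Tcf7l1 and -0.42 for Ccnd1. None of the 9 was called between the groups, Ctnnb1 (-0.032), Ccnd1 (0.070), Apcdd1 (-0.12) and Nkd1 (0.047) being those of highest level.

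Of the other vesicular transporters, Slc17a7 of hippocampal principal cells differed by -0.0042, Slc17a8 by 0.24 and the GABA transporter Slc32a1 by 0.077, with none called. The r of Slc32a1 with Glp1r was 0.88 with the group means removed and 0.66 without that step, and it turned to -0.65 without both high arrays. Of the other calcium buffers, Calb1 ran opposite to Glp1r, with r = -0.67 with the group means removed. From the values as deposited its r was -0.72, and -0.15 without both high arrays. Calb1 and Pvalb differed by 0.10 and 0.12. The PKC isoforms gave r = 0.32 as a mean, 0 of 7 were called, and Prkcb, Prkce, Prkca and Prkcz differed by 0.0085, -0.032, 0.0046 and -0.080. All 6 other RGS genes were higher in Dp1Yey (median 0.16 against -0.015 over all genes), and 0 were called. At an unadjusted p under 0.05 (limma) 4 of them passed, against 19.5% of all genes. Rgs7 differed by 0.18, Rgs8 by 0.29, Rgs4 by 0.15, Rgs14 by 0.17 and Rgs16 by -0.016.

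Members aside, the 10 genes most like Glp1r over the 10 arrays, by Pearson's r with the group means removed, were Myo5b (0.96), Zic2 (0.96), Zmynd10 (0.95), Sox1ot (0.94), Nudt22 (0.94), Crtap (0.94), Dlx6 (0.94), Npffr1 (0.94), Pde9a (0.94) and Nfrkb (0.94). Calb2 (0.94) would stand between Pde9a and Nfrkb. In all, 39 genes above background had an r of 0.9 or more. Control replicate 1 was the highest array for each of these 10 genes except Crtap, whose highest was Dp1Yey replicate 1. Without both arrays, r from the values as deposited was 0.89 for Myo5b, 0.79 for Nfrkb and 0.51 for Npffr1. It lay between -0.72 and 0.29 for the other 7. Myo5b, a vesicle motor gene, had log2 values of 8.53, 8.35, 8.29, 8.27 and 8.35 in Dp1Yey and 8.86, 8.52, 8.50, 8.38 and 8.39 in control mice, a far smaller spread than that of Glp1r. Zic2, Dlx6 and Npffr1 encode transcription factors and a neuropeptide receptor, and none of the 10 genes was called between the groups (adjusted p from 0.168 to 0.992, limma). Control replicate 1 and Dp1Yey replicate 1 were the 2 highest arrays for 2.18% of genes above background, and control replicate 1 was the highest for 13.1%.

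**Figure D5:**
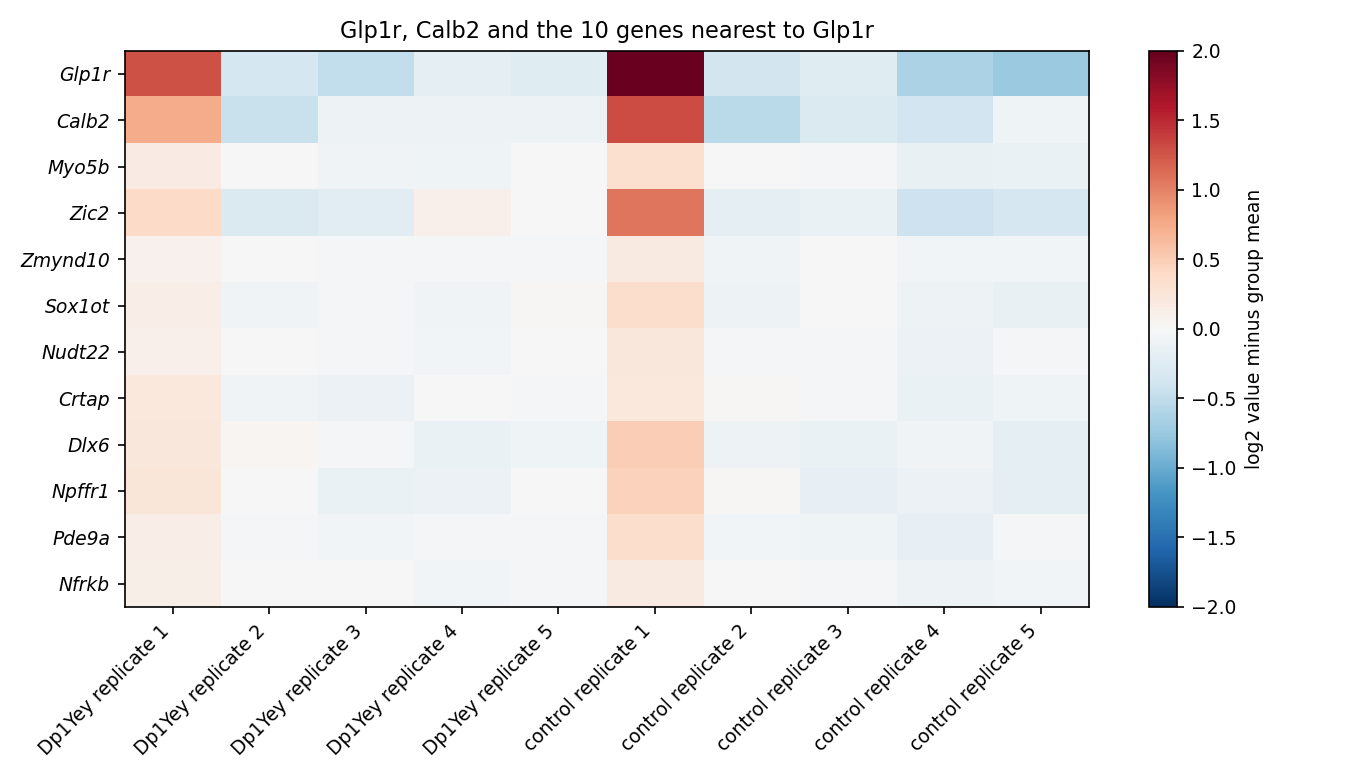
Log2 RMA value minus the mean of its group (colour) for Glp1r, Calb2 and the 10 genes above background most like Glp1r (rows) on the 10 arrays (columns). The columns of Dp1Yey replicate 1 and control replicate 1 are the reddest in every row, and the colours of Glp1r, Calb2 and Zic2 are the deepest.

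Glp1r was thus highest on the same 2 arrays as Calb2, Zic1, Zic2 and Dlx6. Without this pair of arrays, and with the group means left in, its correlation with the marker mean turned negative. The mean of the thalamus list was highest on the same arrays, but without Zic1 its second highest array was control replicate 2. Prkcd was 1.94-fold up on control replicate 1. Of the other members, Slc17a6 and Rgs16 were not high on that pair of arrays, and Tcf7l2, Lef1 and Ramp3 rose there by at most 1.15-fold. Control replicate 1 was the highest array for 5 of 13 genes of the thalamus list, among them Plcb4 and Lhx9. It was so for 2 of 9 habenular genes, against 13.1% of all genes above background. The pair were the 2 highest arrays for 2 of the 13 and 0 of the 9, against 2.18%. The habenular markers Gpr151 and Pou4f1 were below background. The arrays carry no record of what was dissected with each hippocampus, and the part of carried-over tissue in the Glp1r values was not tested.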

How the data were processed

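The authors deposited log2 values made from Affymetrix Mouse Gene 1.0 ST arrays by RMA, which corrects background, quantile-normalises the probes and summarises each probe set. RMA, limma and mm10 are named in the submitters' notes on processing. The sources used here do not say which arrays were normalised as a set. Scan batches were not examined, since scanner files were not used here. Precision is limited by the number of arrays.

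Of 35556 probe sets, 21789 had a single symbol in the platform annotation, 1621 had several and 12146 had none. Each gene took its probe set of highest mean, which left 19938 genes. Coordinates came from RefSeq GRCm38.p6 through Entrez identifiers. Groups came from the labels. The test was limma's (version 3.58.1 under R 4.3.3; lmFit, eBayes, two-sided, Benjamini-Hochberg over all genes, called at an adjusted p under 0.05). The rank statistic covered 25 pairs of arrays, trimmed by 0.25 at each end and called at 0.025 and 0.975.

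The members and the 13 gene lists were chosen with earlier results of these data known. Of 107 listed genes 98 were measured and 9 were not analysed here. The rule for named genes took all members, the 10 genes above background most like Glp1r, and of each list up to 4 genes of highest level and any gene called. Other settings were a new quantile normalisation, median centring, a filter at the background level, the mean of a gene's probe sets, array weights, a trend with a robust prior, the thalamus list as a covariate, the replicate number as a block and leaving out each array. The settings without both arrays highest in Glp1r, without Calb2 and without Zic1 were added after seeing the data. On simulated data over 19938 genes for Dp1Yey against control, limma found 95% of the genes set to change 1.5-fold and 60% of those set to change 1.2-fold, with 5.49% false calls.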

Additional observations from a re-analysis of the deposited data

Results flagged for a closer look

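Of 42 groups of 5 arrays examined (8 members and 13 list means in each genotype), 8 held an array whose gap to its nearest neighbour took up more than 0.71 of the group's range. Chance gives about 1 in 20 for independent groups chosen without sight of the data. These groups share the same arrays and were chosen with earlier results known, so that rate is no measure of an excess here. Control replicate 1 was the highest control array for Glp1r (share of the range 0.816), Tcf7l2 (0.717), Calb2 (0.752), the thalamus list (0.818) and the lateral septum list (0.892). Dp1Yey replicate 1 was the highest Dp1Yey array for Glp1r (0.830). For the list of hippocampal principal cells control replicate 4 was the lowest control array (0.848), and for the PKC isoforms Dp1Yey replicate 2 was the highest Dp1Yey array (0.768).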

How the results depend on the processing

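No limma setting called any of the 8 members, and the rank statistic called 1, Glp1r, at the same log2 difference of -0.64. Without each array in turn the Glp1r difference ranged from -0.96 to -0.14, the members called stayed at 0, and the differences of Calb2 (-0.35 to 0.16), Prkcd (-0.027 to 0.33) and Rgs16 (-0.085 to 0.042) changed sign. Calb2 also turned to 0.061 with the thalamus list as a covariate. Tcf7l2, Lef1, Ramp3 and Slc17a6 kept their direction under all settings run. The r of Glp1r with the mean of the 7 markers (0.76) ranged from 0.22 to 0.84 without each array, the lowest without control replicate 1, was 0.13 as Spearman's rho and -0.69 without both arrays highest in Glp1r. The r with the thalamus list (0.94) ranged from 0.77 to 0.95, was 0.60 as Spearman's rho and 0.23 without both arrays; the cause was not tested. Genes called numbered 159, from 70 to 232 without each array, 79 without both arrays and 94 with the replicate number as a block, where Glp1r differed by -0.64 (adjusted p = 0.151). The deviations of same-numbered arrays from their group means had correlations of 0.062, 0.0088, 0.040, 0.22 and -0.33. The labels do not say whether same-numbered mice were paired, and these correlations cannot settle it.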
